A study of Mus musculus with 6 samples.

Results

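The mitochondrially encoded RNAs are the transcripts of the mitochondrial chromosome itself (chromosome MT, 16299 bases in GRCm39). They were chosen by name, as the genes whose symbol begins with mt- in the authors' comparison table, and followed by their Ensembl identifiers into the count table, where they were 35 of 56923 genes. The 35 genes were 13 protein-coding genes, 2 rRNA genes, and 20 tRNA genes. All 35 had the same symbol in the GENCODE annotation of the same build, which lists 37 genes on chromosome MT. mRNA-Seq had been performed on the LVs of 12-week-old mice, with total RNA extracted from perfused hearts, from 3 heterozygous *Lztr1* R409C/+ mice (below, mutant mice) and 3 WT mice, with 1 library per mouse. The *Lztr1* allele is a germline missense knock-in made by genome editing and backcrossed to C57BL/6J, so every cell of the mutant mice carries it, and the labels list no treatment. The labels name the tissue heart and the genotypes mutant and wild type, and the LV and the use of male mice alone for the effects of the mutation come from the study's methods. The comparison asked whether the mitochondrial transcripts differed in amount or in their proportions between *Lztr1* R409C/+ and WT LVs.

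Mitochondrial DNA is a small circle kept in many copies per cell. Its protein-coding genes all specify core subunits of the respiratory chain and ATP synthase, and its rRNAs and tRNAs serve the ribosomes that translate them inside the organelle. Both strands are transcribed into long precursors, and the tRNAs that lie between the other genes are cut out to release the mRNAs and rRNAs. Cardiomyocytes are packed with mitochondria, and mitochondrial transcripts are a large part of the RNA of the heart.

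Total counts ranged from 66130887 to 72641124 per mouse, and 3 counts, the limit that a count of 0 allows, corresponded to 0.0413 to 0.0454 CPM (counts scaled by the library total). Intervals and this limit cover counting error only. The ventricular origin of the RNA was checked against markers, which cannot tell the left ventricle from the right. Of the 4 atrial cardiomyocyte markers, *Myl7*, *Sln*, and *Myl4* lay between 0 and 0.961 nuclear CPM (CPM of all counts other than those of the mitochondrial genes and their chromosome 1 copies) and *Nppa*, the gene of the natriuretic peptide ANP, between 63.6 and 189.3, against 2192 to 6318 for the ventricular *Myl2*. Within the WT group, replicate 3 stood apart in its mitochondrial counts, and within the mutant group, replicate 1 was the highest. Their TMM factors, which scale the library sizes in the fit, were also the extremes, at 1.39 for WT replicate 3 and 0.800 for mutant replicate 1, against 0.905 to 1.10 in the other mice. Differences that rest on these libraries are therefore also given without them. Nothing in the labels names a batch, and separate mice are the replicates.

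A stretch of chromosome 1 is a near-identical copy of part of the mitochondrial genome, and it bears on 8 of the 13 protein-coding genes. Alignment of chromosome MT to the nuclear genome of the same build placed positions 6390 to 11042 of chromosome MT at chr1:24650616-24655269, on the minus strand, with 99.936% identity over 4654 aligned bases. This stretch holds all of *mt-Co2*, *mt-Atp8*, *mt-Atp6*, *mt-Co3*, *mt-Nd3*, and *mt-Nd4l*, parts of *mt-Co1* and *mt-Nd4*, and 5 tRNA genes. The copy differed from chromosome MT by 2 substitutions and 1 added base, and these 3 places are shown because they are the only differences within the aligned stretch. The substitutions are A6393T in *mt-Co1* and T9461C in *mt-Nd3*, with the base of chromosome MT first, the position on chromosome MT counted from 1, and then the base of the copy. The third is an A added in the copy after position 9828, in *mt-Tr*. In the reference sequences of GRCm39 below, read in the sense of the mitochondrial plus strand, the differing base is in capitals.
chromosome MT at 6390-6423: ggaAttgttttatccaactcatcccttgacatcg
chromosome 1 copy of the same stretch: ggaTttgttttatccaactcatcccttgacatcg
chromosome MT at 9431-9491: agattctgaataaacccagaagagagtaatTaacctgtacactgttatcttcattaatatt
chromosome 1 copy of the same stretch: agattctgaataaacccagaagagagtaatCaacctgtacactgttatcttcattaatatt
chromosome MT at 9799-9858: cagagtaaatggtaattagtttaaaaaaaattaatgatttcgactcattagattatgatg
chromosome 1 copy of the same stretch: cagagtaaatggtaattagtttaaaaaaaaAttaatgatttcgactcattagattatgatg

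Of the 7 copies analysed, 5 were counted almost as highly as their mitochondrial genes. *Gm28437*, the copy of 99.9% of *mt-Co3* (a subunit of cytochrome c oxidase), had 18860, 18930, and 6294 CPM in WT replicates 1 to 3 and 25660, 17880, and 16710 CPM in mutant replicates 1 to 3, and *mt-Co3* itself had 19300, 19620, and 6592 CPM and 26250, 18260, and 17770 CPM. The low and the high libraries were thus the same for the copy and the gene. Across the 6 mice, the counts of the copy divided by those of its gene were 0.940 to 0.979 for *mt-Co3*, 0.927 to 1.01 for *mt-Co2* (*Gm28661*), 0.931 to 1.0 for *mt-Atp6* (*Atp6-ps*), 0.909 to 1.0 for *mt-Nd3* (*Gm28438*), and 0.835 to 0.971 for *mt-Nd4l* (*Gm10222*). These 5 copies span 99.0% to 99.9% of their genes. For *mt-Co1*, of which *Gm29216* spans 31.3%, the ratio was 0.146 to 0.180, or 0.458 to 0.566 per base. The remaining copy, *Gm28439*, spans 63.6% of *mt-Nd4*, a complex I subunit, and its ratio was 0.357 to 0.436 in 5 mice and 0.766 in WT replicate 3. Together the 7 copies analysed took 9.02%, 9.76%, and 3.76% of all counts in the WT mice and 11.7%, 9.57%, and 7.47% in the mutant mice. *mt-Atp8* and the 5 tRNA genes of the stretch (*mt-Ts1*, *mt-Td*, *mt-Tk*, *mt-Tg*, and *mt-Tr*) have no copy among these 7 genes. The annotated lncRNA *Gm71269*, which overlaps the copy of *mt-Nd3*, was not among the genes with deposited counts. The values of the 8 protein-coding and 5 tRNA genes in the stretch are therefore uncertain, and how the authors' counting divided reads that match both places was not given in the sources used here.

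**Figure D1:**
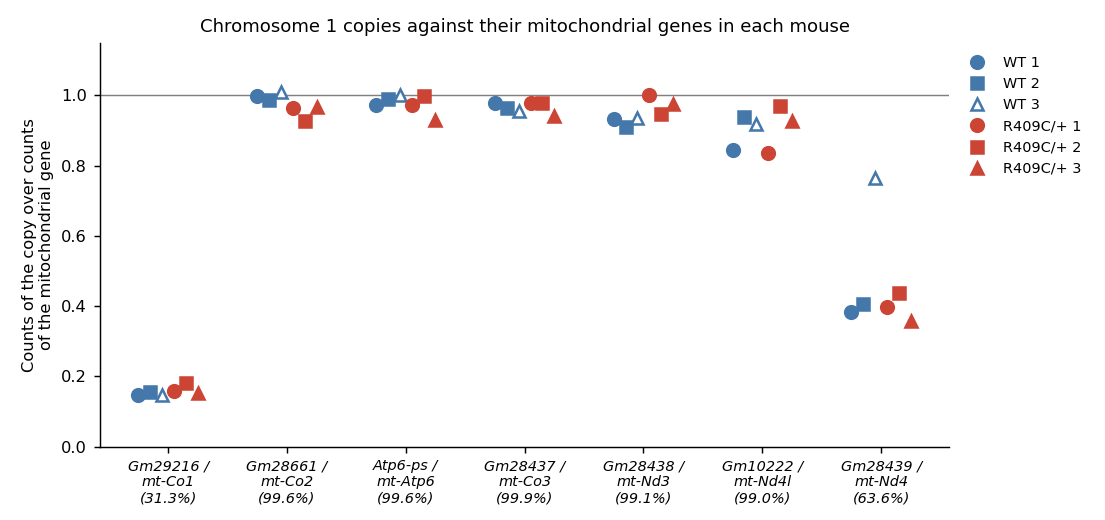
Counts of each of the 7 chromosome 1 copies analysed divided by the counts of its mitochondrial gene (y axis, ratio without unit), with 1 point per mouse, WT in blue and R409C/+ in red, and the percentage of the mitochondrial gene that the copy spans in parentheses. The 5 copies that span nearly the whole gene lie between 0.835 and 1.01, and WT replicate 3 leaves the other mice only for *Gm28439*, at 0.766.

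The mitochondrial share of the library varied more among mice of the same genotype than between the genotypes. The 35 genes took 36.5%, 37.3%, and 13.8% of all counts in WT replicates 1 to 3 and 45.4%, 35.0%, and 29.7% in mutant replicates 1 to 3. The 95% Wilson interval in the lowest library, WT replicate 3, was 13.84% to 13.85%, so the depth does not limit these shares. The groups overlapped. The WT mean was 29.2% ± 13.3 (SD, n = 3) and that of the mutants 36.7% ± 8.0 (SD, n = 3), so the difference of 7.51 percentage points was within the spread (p = 0.60, exact permutation test, two-sided, whose smallest p with 3 mice against 3 is 0.1). With the chromosome 1 copies included, the shares were 45.5%, 47.0%, and 17.6% in WT and 57.1%, 44.6%, and 37.2% in mutant mice (p = 0.60, the same exact test). Without WT replicate 3 the difference was -0.167 percentage points, and without WT replicate 3 and mutant replicate 1 it was -4.52 percentage points. The sign of the difference thus depended on WT replicate 3. In RNA of whole LVs, fewer mitochondria-rich cells and less mitochondrial RNA per cell cannot be told apart.

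The 3 classes of RNA did not vary together. The protein-coding genes took 35.2%, 36.1%, and 12.2% of the counts in the WT mice and 43.7%, 34.0%, and 28.7% in the mutant mice. The rRNA genes took 0.970%, 0.859%, and 1.46% in WT and 1.31%, 0.780%, and 0.747% in mutant mice. WT replicate 3, the lowest mouse for protein-coding counts, was thus the highest for rRNA. The tRNA genes took 0.303%, 0.307%, and 0.202% in WT and 0.437%, 0.266%, and 0.258% in mutant mice, with mutant replicate 1 highest. The groups overlapped in each class (p = 0.60, 0.50, and 0.60 for protein-coding, rRNA, and tRNA genes, exact permutation tests). The mutant mean differed by 7.61, -0.151, and 0.0495 percentage points for these classes, by -0.213, 0.0305, and 0.0153 without WT replicate 3, and by 3.50, -0.332, and -0.00886 without mutant replicate 1. The study's methods say that rRNA data were left out but not at which step or for which rRNAs, and the mitochondrial rRNA genes kept counts in every mouse, so what that step removed from them is not known. Counts of rRNA per 100 protein-coding counts were 2.76, 2.38, and 12.0 in WT and 2.99, 2.29, and 2.60 in mutant mice, a mean log2 difference of -0.71 that was 0.03 without WT replicate 3.

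**Figure D2:**
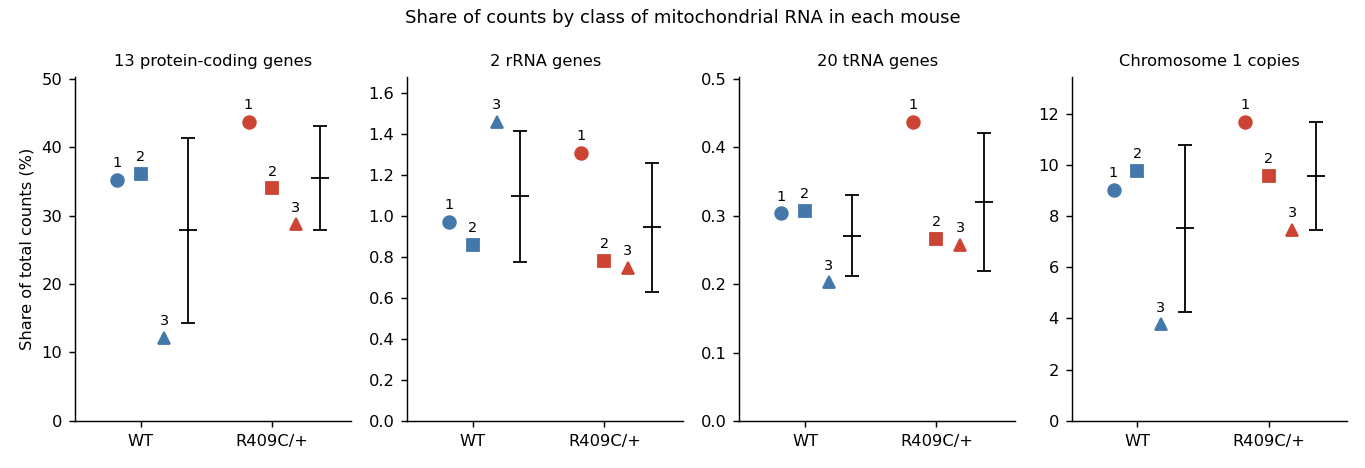
Share of total counts (%) taken by the protein-coding, rRNA, and tRNA genes of the mitochondrial chromosome and by the chromosome 1 copies analysed. Each mouse is 1 numbered point, with the mean ± SD of each genotype beside the points. WT replicate 3 is lowest for protein-coding genes (12.2%), tRNA genes (0.202%), and copies (3.76%) and highest for rRNA genes (1.46%).

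In the fit over all 17212 tested genes, no mitochondrial gene passed the test. All 35 were tested, and 0 of 35 had an adjusted p under 0.05 by edgeR's quasi-likelihood test, where 7 genes, or 0.0407% of all tested, did. An unadjusted p under 0.05 was reached by 0 of 35, where 8.63% of all tested genes reached it. DESeq2 and edgeR's exact test each called 0 of 35, where they called 150 genes (0.871%) and 140 genes (0.813%). The fitted log2 fold changes of mutant over WT mice on the TMM-normalized scale (library sizes corrected for composition) were positive for 13 of 13 protein-coding, 1 of 2 rRNA, and 12 of 20 tRNA genes, with medians of 0.43, 0.07, and 0.07 beside 0.01 over all tested genes. After TMM normalization, 0 of 35 mitochondrial genes had groups that did not overlap, against 15.5% of all tested genes. By library size alone, where 8.38% of all tested genes did not overlap, the 1 gene of 35 was *mt-Tk*.

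The positive values of the protein-coding genes rested on WT replicate 3 and mutant replicate 1. Without WT replicate 3, 5 of 13 were positive, with a median of -0.04 and a range from -0.18 to 0.28. Without mutant replicate 1, 12 of 13 were positive, with a median of 0.11 and a range from -0.02 to 0.26. Without both mice, 0 of 13 were positive, with a range from -0.51 to -0.12. The tRNA genes with positive values numbered 8 of 20 without WT replicate 3 and 3 of 20 without mutant replicate 1. With the pair of mice left out, 0 of 2 rRNA and 0 of 20 tRNA genes were positive, and the smallest adjusted p of any mitochondrial gene in that edgeR fit was 0.274. The common biological coefficient of variation over all genes was 26.1%, and the standard errors of the protein-coding genes ranged from 0.360 to 0.892 on the log2 scale.

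**Figure D3:**
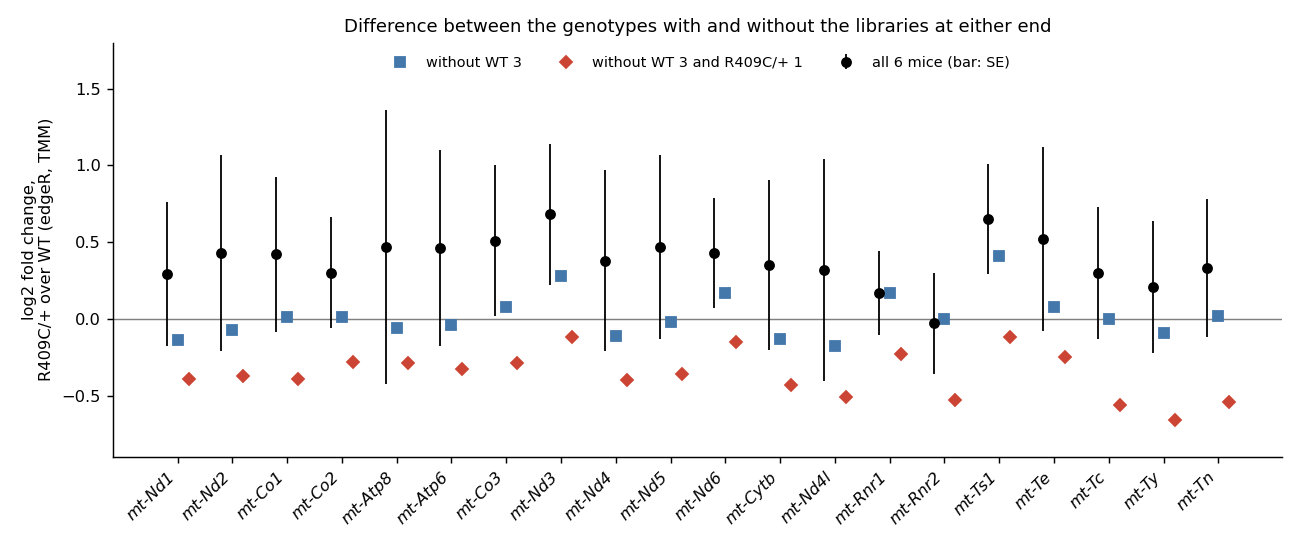
Log2 fold change of mutant over WT mice for the 13 protein-coding, 2 rRNA, and 5 most abundant tRNA genes (y axis, edgeR after TMM normalization), with all 6 mice (black, bar = SE), without WT replicate 3 (blue squares), and without WT replicate 3 and mutant replicate 1 (red diamonds). The protein-coding genes lie between 0.29 and 0.68 with all mice and between -0.51 and -0.12 without that pair.

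Cytochrome c oxidase (complex IV), the last enzyme of the respiratory chain, takes its catalytic core from *mt-Co1*, *mt-Co2*, and *mt-Co3*. *mt-Co1* (chrMT:5328-6872), which encodes the subunit with the oxygen-binding site, was the most abundant gene, with 113300, 121600, and 48080 CPM in WT and 155400, 107200, and 96310 CPM in mutant mice. It alone took between 4.81% and 15.5% of a library. The groups overlapped, and the log2 fold change was 0.42 ± 0.505 (SE, n = 3 per group, adjusted p = 0.856, edgeR). *mt-Co2* (chrMT:7013-7696), which receives the electrons from cytochrome c, had 17750, 19770, and 13050 CPM in WT and 22640, 19560, and 15470 CPM in mutant mice, so WT replicate 3 fell less far below its group here than for *mt-Co1*. Its log2 fold change was 0.30 ± 0.362 (SE, adjusted p = 0.856, edgeR). For *mt-Co3* (chrMT:8607-9390), the log2 fold change was 0.51 ± 0.493 (SE, adjusted p = 0.815, edgeR), and its copy *Gm28437* gave 0.51 ± 0.501 (SE, adjusted p = 0.819).

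Complex I (NADH dehydrogenase) contains 7 of the mitochondrially encoded proteins. *mt-Nd3* (chrMT:9459-9806), a small subunit of the membrane arm, had the highest log2 fold change of the protein-coding genes, 0.68 ± 0.460 (SE, adjusted p = 0.731, edgeR). Its levels were 1710, 1883, and 786 CPM in WT and 2874, 1789, and 1976 CPM in mutant mice, with mutant replicate 2 below WT replicate 2. *mt-Nd1* (chrMT:2751-3707), which lies near the site where ubiquinone is reduced, had the lowest, 0.29 ± 0.470 (SE, adjusted p = 0.901, edgeR). The proton-pumping subunits encoded by *mt-Nd2* (chrMT:3914-4951), *mt-Nd4* (chrMT:10167-11544), and *mt-Nd5* (chrMT:11742-13565) had log2 fold changes of 0.43, 0.38, and 0.47, with adjusted p between 0.866 and 0.898 (edgeR). *mt-Nd4l* (chrMT:9877-10173) had 0.32 ± 0.724 (SE, adjusted p = 0.937, edgeR) and was the only protein-coding gene whose value was negative without mutant replicate 1 alone, at -0.02. *mt-Nd6* (chrMT:13552-14070), the only protein-coding gene on the minus strand, had 12580, 12170, and 9537 CPM in WT and 17050, 15340, and 9777 CPM in mutant mice. In WT replicate 3 it was 0.771 of the mean of the other WT mice, the highest such ratio of the 13 genes. Its log2 fold change was 0.43 ± 0.360 (SE, adjusted p = 0.783, edgeR). It shares 14 bases with *mt-Nd5* on the opposite strand, and whether strand was used in counting was not given in the sources used here, so reads of *mt-Nd6* and of precursor RNA antisense to it cannot be told apart.

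*mt-Cytb* (chrMT:14145-15288), the mitochondrially encoded subunit of complex III, had 38250, 35660, and 9183 CPM in WT and 41280, 31190, and 31030 CPM in mutant mice. WT replicate 3 was again far below the other 5 mice, which lay between 31030 and 41280 CPM. The log2 fold change was 0.35 ± 0.552 (SE, adjusted p = 0.900, edgeR) and -0.13 without WT replicate 3.

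ATP synthase takes *mt-Atp6*, part of the proton channel, and the small membrane subunit *mt-Atp8* from the mitochondrial chromosome. The 2 reading frames share 43 bases on the same strand (chrMT:7927-7969) and leave the precursor as 1 mRNA, so their counts are not independent. The junction is shown with the shared bases in capitals and flanking bases on both sides (chrMT:7897-7999, plus strand, GRCm39).
mt-Atp8 and mt-Atp6 junction: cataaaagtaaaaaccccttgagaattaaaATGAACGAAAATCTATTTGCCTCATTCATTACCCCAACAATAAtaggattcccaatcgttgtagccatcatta
*mt-Atp6* (chrMT:7927-8607) had 18890, 19560, and 3712 CPM in WT and 22440, 19430, and 15110 CPM in mutant mice. *mt-Atp8* (chrMT:7766-7969) had 2770, 3101, and 377 CPM in WT and 3233, 3155, and 2249 CPM in mutant mice, and WT replicate 3 was at 0.128 of the mean of the other WT mice, the lowest such ratio of the 35 genes. The log2 fold changes were 0.46 ± 0.640 (SE, adjusted p = 0.885) and 0.47 ± 0.892 (SE, adjusted p = 0.922) by edgeR.

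Per kilobase of gene, *mt-Co1* was the highest and *mt-Nd3* the lowest protein-coding gene in both genotypes. *mt-Co1* was at 61040 ± 26050 CPM per kilobase in the 3 WT mice (mean ± SD) and at 77440 ± 20350 in the 3 mutants, and *mt-Nd3* at 4195 ± 1694 and 6359 ± 1666 CPM per kilobase. By the mean of all 6 mice, *mt-Cytb* (27180 CPM per kilobase), *mt-Co2*, *mt-Nd1*, *mt-Nd6*, *mt-Atp6*, *mt-Co3*, *mt-Nd4*, *mt-Nd2*, *mt-Nd5*, *mt-Nd4l*, and *mt-Atp8* (12160 CPM per kilobase) lay between them. Among these genes between the ends, neighbours differed by less than the SD over the mice of either genotype. That SD is a spread between mice and does not measure how firm the order is within a mouse. The order was not the same within each genotype. *mt-Co2* (24640) was above *mt-Cytb* (24210) and *mt-Nd1* (22780) above *mt-Atp6* (20630 CPM per kilobase) in the WT mean, while in the mutant mean *mt-Cytb* (30160) was above *mt-Co2* (28110) and *mt-Atp6* (27890) above *mt-Nd1* (27090 CPM per kilobase). Without WT replicate 3 the WT mean had *mt-Cytb* at 32300, *mt-Nd1* at 29180, *mt-Atp6* at 28230, and *mt-Co2* at 27420 CPM per kilobase. The order also depended on the chromosome 1 copies. When each copy was added to its gene, *mt-Co2* stood at 52030, *mt-Atp6* at 47960, *mt-Co3* at 45100, and *mt-Nd4* at 29870 CPM per kilobase. All were then above *mt-Cytb*, while *mt-Co1* stood at 80150.

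Ratios among the mitochondrial genes do not depend on library size, and in these the proportions of the protein-coding genes were close to each other in 5 mice and different in WT replicate 3. The root mean square distance of the log2 shares of the 13 genes from the median of the other mice was 0.132 to 0.178 in 5 mice and 0.741 in WT replicate 3. *mt-Co2* made up 5.04%, 5.47%, and 10.7% of the protein-coding mitochondrial counts in WT and 5.18%, 5.76%, and 5.39% in mutant mice. *mt-Nd6* made up 3.57%, 3.37%, and 7.83% in WT and 3.90%, 4.52%, and 3.41% in mutant mice. Both were thus highest in WT replicate 3, and so was *mt-Co1*, at 39.5% against 31.6% to 35.6% in the other mice. In the other direction, *mt-Nd2* made up 7.08%, 7.16%, and 3.99% in WT and 6.71%, 7.56%, and 6.47% in mutant mice. *mt-Atp8* made up 0.787%, 0.858%, and 0.309% in WT and 0.740%, 0.929%, and 0.783% in mutant mice. *mt-Atp6*, *mt-Nd4*, *mt-Nd4l*, *mt-Nd5*, and *mt-Cytb* also had their lowest share in WT replicate 3. *mt-Nd1* (7.83%), *mt-Co3* (5.41%), and *mt-Nd3* (0.645%) of that mouse were within the range of the others. Counts per base of the copy *Gm28439* were 1.21 times those of *mt-Nd4* in WT replicate 3, the highest value of the 6 mice, and 0.561 times in the lowest.

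**Figure D4:**
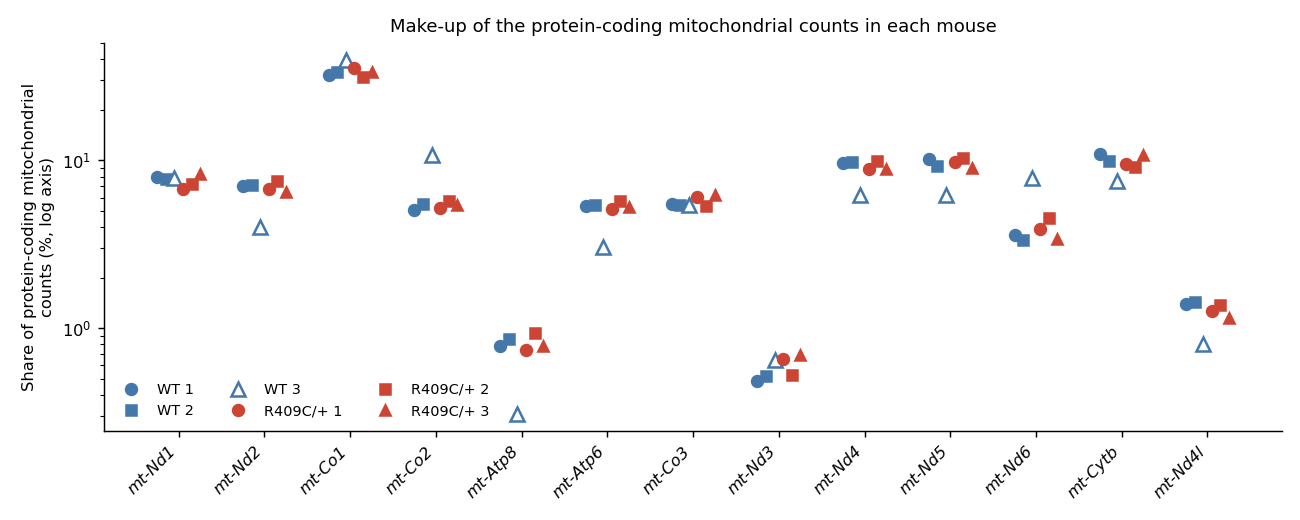
Share of each gene in the counts of the 13 protein-coding mitochondrial genes (y axis, %, log scale), with 1 point per mouse, WT in blue and R409C/+ in red, and WT replicate 3 as open triangles. The other 5 mice lie together for each gene, while WT replicate 3 is at 10.7% for *mt-Co2* and 0.309% for *mt-Atp8*.

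Between the genotypes, 0 of the 22 ratios compared had groups that did not overlap, and the smallest p was 0.2 (exact permutation tests on log2 ratios). The mean log2 difference of mutant from WT mice ranged over the 13 shares from -0.29 for *mt-Co2* to 0.46 for *mt-Atp8*, and from -0.16 to 0.30 without WT replicate 3. Complex I genes together made up 40.3%, 39.3%, and 33.5% of the protein-coding counts in WT and 37.9%, 41.5%, and 38.0% in mutant mice (p = 0.80, exact permutation test). Complex IV genes made up 42.7%, 44.6%, and 55.6% in WT and 46.8%, 42.7%, and 45.1% in mutant mice (p = 0.80, exact permutation test). ATP synthase genes made up 6.15%, 6.27%, and 3.36% in WT and 5.88%, 6.65%, and 6.05% in mutant mice (p = 0.60, exact permutation test). The mean log2 differences of these shares were 0.06 for complex I, -0.08 for complex IV, and 0.29 for ATP synthase, and -0.03, 0.04, and -0.0067 without WT replicate 3. The ratio of *mt-Rnr2* (the 16S rRNA, chrMT:1094-2675) to *mt-Rnr1* (the 12S rRNA, chrMT:70-1024) was 2.56, 2.90, and 2.91 in WT and 2.62, 2.58, and 1.86 in mutant mice (p = 0.30, exact permutation test), lowest in mutant replicate 3. The log2 fold changes of the rRNAs on the TMM scale were 0.17 ± 0.274 (SE, adjusted p = 0.900) for *mt-Rnr1*, which was -0.04 with library size only, and -0.03 ± 0.330 (SE, adjusted p = 0.986) for *mt-Rnr2*, which was 0.02 with upper quartile scaling (edgeR).

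The tRNA genes covered a wide range of counts, and the genes on the minus strand had the higher ones. Whether strand was used in counting was not given in the sources used here. Reads of a minus-strand tRNA and of plus-strand RNA antisense to it therefore cannot be told apart, so the contrast between the strands is one of counts. The 8 tRNA genes on the minus strand had mean levels of 26.9 to 734 CPM, with a median of 248, and the 12 on the plus strand 1.68 to 201 CPM, with a median of 21.0. *mt-Ts1* (chrMT:6870-6938), a serine tRNA that overlaps the end of *mt-Co1* on the opposite strand and lies in the chromosome 1 stretch, was the highest. Its levels were 581, 710, and 535 CPM in WT and 1223, 680, and 673 CPM in mutant mice, so mutant replicate 1 stood apart and the other 5 mice overlapped. Its log2 fold change of 0.65 ± 0.359 (SE) had the smallest adjusted p of the 35 genes (0.651, edgeR). The lysine tRNA *mt-Tk* (chrMT:7700-7764), also in that stretch, was the lowest, with 1.87, 1.93, and 2.08 CPM in WT and 1.70, 1.61, and 0.892 CPM in mutant mice, and the groups did not overlap on this scale. On the TMM scale they overlapped, and the log2 fold change was -0.31 ± 0.371 (SE, adjusted p = 0.857, edgeR). These tRNAs, at the top and the bottom of the range, are shown 5′ to 3′ on their own strands (GRCm39), with the bases that *mt-Ts1* shares with *mt-Co1* in capitals.
mt-Ts1: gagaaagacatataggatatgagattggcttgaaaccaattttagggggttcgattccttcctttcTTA
mt-Tk: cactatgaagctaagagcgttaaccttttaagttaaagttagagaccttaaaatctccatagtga

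Of the other abundant tRNAs, *mt-Te* (glutamate, chrMT:14071-14139), next to *mt-Nd6* on the minus strand, had 740, 649, and 224 CPM in WT and 911, 727, and 591 CPM in mutant mice, with WT replicate 3 lowest as for the protein-coding genes. *mt-Tc*, *mt-Ty*, and *mt-Tn* (cysteine, tyrosine, and asparagine), which lie in one cluster on the minus strand (chrMT:5089-5326), had log2 fold changes of 0.30, 0.21, and 0.33, with adjusted p between 0.882 and 0.926 (edgeR). WT replicate 3 was at 0.649 to 0.675 of the other WT mice for these 3, and mutant replicate 1 at 1.85 to 1.91 of the other mutant mice. In the same order, the log2 fold changes were 0.00, -0.09, and 0.02 without WT replicate 3 and -0.27, -0.37, and -0.24 without mutant replicate 1. Another cluster stood out in a mutant mouse. *mt-Th*, *mt-Ts2*, and *mt-Tl2* (histidine, serine, and leucine), which follow each other between *mt-Nd4* and *mt-Nd5* (chrMT:11546-11741), had 2.95, 3.25, and 4.64 CPM in mutant replicate 3, against 12.6 to 24.98, 17.8 to 30.9, and 22.4 to 37.2 CPM in the other 5 mice, and these genes were singled out after their values were seen.

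**Figure D5:**
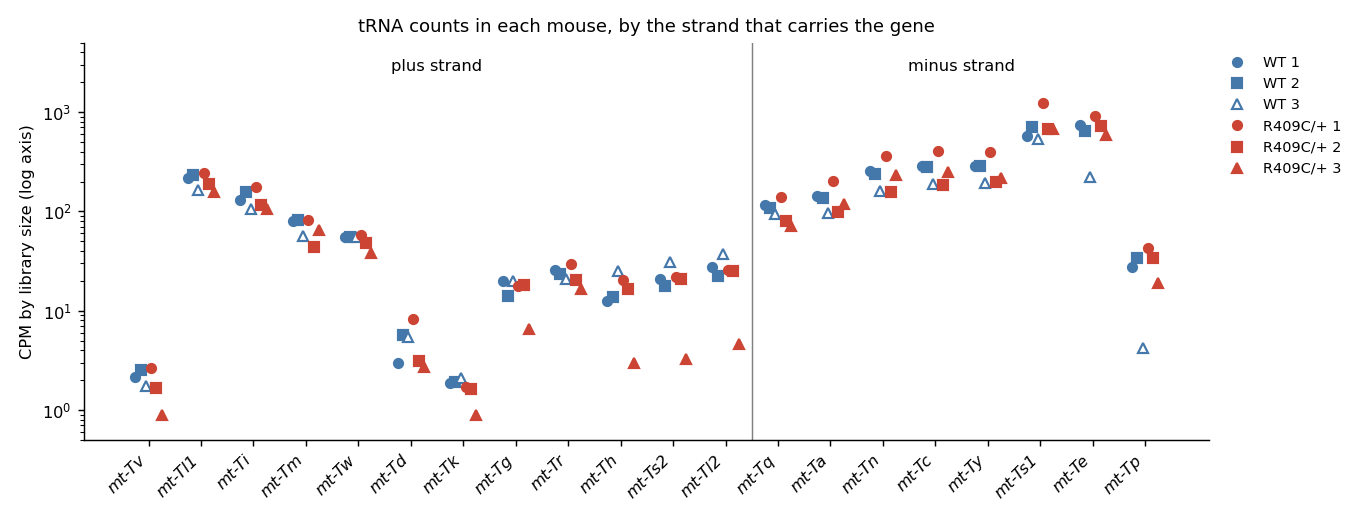
CPM by library size (y axis, log scale) of the 20 tRNA genes in each mouse, ordered along the chromosome within each strand, WT in blue (replicate 3 as open triangles) and R409C/+ in red. Levels run from about those of *mt-Tk* (0.892 to 2.08 CPM) to those of *mt-Ts1* (535 to 1223 CPM), and *mt-Th*, *mt-Ts2*, and *mt-Tl2* are low in mutant replicate 3.

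The minus-strand genes made up 80.2%, 79.5%, and 73.9% of the tRNA counts in WT and 84.2%, 81.1%, and 84.4% in mutant mice. The groups did not overlap. The WT mean was 77.9% ± 3.46 (SD, n = 3), the mutant mean 83.3% ± 1.84 (SD, n = 3), and the difference 5.35 percentage points (p = 0.1, exact permutation test, the smallest it can give). Without WT replicate 3 the difference was 3.37 percentage points, and without mutant replicate 1 as well it was 2.87. This measure was formed after the values were seen. Without *mt-Ts1* the shares were 75.5%, 73.4%, and 64.6% in WT and 78.1%, 74.7%, and 78.9% in mutant mice, which overlapped (p = 0.2, exact permutation test). The difference of the means was then 6.05 percentage points, so it was no smaller than with *mt-Ts1*. Relative to the protein-coding mitochondrial counts, 5 of the 20 tRNA genes, 0 of the 13 protein-coding genes, and 0 of the 2 rRNA genes had groups that did not overlap, and all 5 were lower in mutant mice and on the plus strand. Over all tested genes the share was 2.37%, but nearly all of these are nuclear genes, whose ratio to mitochondrial counts carries the variation of the mitochondrial share among the mice, so it gives no level to read the 5 genes against. They were *mt-Tv*, *mt-Tl1*, *mt-Tm*, *mt-Tw*, and *mt-Tk*. For *mt-Tl1*, the leucine tRNA that follows the 16S rRNA (chrMT:2676-2750), the CPM of the protein-coding mitochondrial counts was 622, 644, and 1357 in WT and 559, 553, and 545 in mutant mice. WT replicate 3 was far above the other 5 mice, which were close together (p = 0.1, exact permutation test, the smallest it can give). The 5 genes share that denominator and are not independent of each other. Mature tRNAs, precursor RNA that spans their genes, and RNA antisense to them cannot be told apart in these counts, so the minus-strand share is not a share of mature tRNAs.

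The proteins that transcribe and process mitochondrial RNA are encoded in the nucleus. Of a list of 29 such genes, chosen with earlier results of these data known, 8 had positive and 21 negative log2 fold changes, with a median of -0.11, beside 8853 positive and 8359 negative and a median of 0.01 over all tested genes. By edgeR's quasi-likelihood test 0 of 29 passed, and 1 higher and 3 lower genes had an unadjusted p under 0.05, where 8.63% of all tested genes did. DESeq2 called 1 of 29, *Lrpprc*, beside 0.871% of all tested genes, and edgeR's exact test called 0 of 29, beside 0.813%. After TMM normalization, 6 of 29 had groups that did not overlap, beside 15.5% of all tested genes. *Lrpprc*, whose protein binds and stabilizes mitochondrial mRNAs, had 262, 282, and 383 TMM-normalized CPM in WT and 136, 226, and 180 in mutant mice, which did not overlap. Its log2 fold change was -0.77 ± 0.213 (SE, adjusted p = 0.290, edgeR). *Slirp*, whose protein forms a complex with LRPPRC, had 11.3, 10.6, and 3.86 TMM-normalized CPM in WT and 21.1, 12.7, and 20.6 in mutant mice, again without overlap, and its log2 fold change was 1.08 ± 0.362 (SE, adjusted p = 0.457, edgeR). These partners therefore had values of opposite sign, and neither passed the adjusted threshold in the main test. *Polrmt*, the mitochondrial RNA polymerase, had -0.29 ± 0.160 (SE, adjusted p = 0.650), its cofactor *Tfb2m* -0.22 ± 0.171 (SE, adjusted p = 0.770), and *Tfam*, which packages mitochondrial DNA and starts its transcription, -0.18 ± 0.223 (SE, adjusted p = 0.864, edgeR).

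Genes that replicate and maintain mitochondrial DNA gave 7 positive and 11 negative values of 18, with a median of -0.06. None of the 18 passed edgeR's quasi-likelihood test, DESeq2, or the exact test, which called 0.0407%, 0.871%, and 0.813% of all tested genes. An unadjusted p under 0.05 was reached by 8.63% of all tested genes and in this list by 1 lower gene, *Polg* (the catalytic subunit of the mitochondrial DNA polymerase), with a log2 fold change of -0.32 ± 0.142 (SE, adjusted p = 0.565, edgeR). *Twnk*, the replicative helicase, had -0.38 ± 0.176 (SE, adjusted p = 0.587, edgeR). Of 15 nuclear regulators of mitochondrial biogenesis, 5 were positive and 10 negative, with a median of -0.11, 0 passed by any of these tests, and 0 had an unadjusted p under 0.05. *Ppargc1a*, a coactivator of these programs, had -0.28 ± 0.210 (SE, adjusted p = 0.757), *Esrrg* -0.31 ± 0.159 (SE, adjusted p = 0.618), and *Gabpa* -0.26 ± 0.142 (SE, adjusted p = 0.644, edgeR).

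The nuclear subunits of the same complexes did not pass the test either, and in each list more were positive than negative, as were 8853 of all 17212 tested genes. Of 37 complex I subunits, 28 were positive, with a median of 0.15. Of 9 complex III subunits, 6 were positive, with a median of 0.01, of 12 complex IV subunits 11, with a median of 0.33, and of 18 ATP synthase subunits 11, with a median of 0.10. In these 4 lists 0 genes passed edgeR's quasi-likelihood test, DESeq2, or the exact test, and an unadjusted p under 0.05 was reached by 3 higher genes and 1 lower gene of complex I and by 2 higher genes each of the other complexes, where 8.63% of all tested genes reached it. *Ndufs6*, an accessory complex I subunit, had 39.6, 35.3, and 50.1 TMM-normalized CPM in WT and 54.1, 52.9, and 97.3 in mutant mice, with a log2 fold change of 0.71 ± 0.236 (SE, adjusted p = 0.446, edgeR). *Ndufs1*, its largest iron-sulfur subunit, went the other way, with -0.52 ± 0.185 (SE, adjusted p = 0.470, edgeR). *Uqcr11* and *Uqcrq* of complex III had 0.77 and 0.59, *Cox5b* and *Cox7a1* of complex IV 0.68 and 0.55, and *Atp5if1*, an inhibitor of ATP synthase, and the subunit *Atp5mf* 0.39 and 0.50, with adjusted p between 0.334 and 0.554 (edgeR).

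The summed nuclear subunits were not low in the mouse with the fewest mitochondrial counts. WT replicate 3, with the lowest protein-coding mitochondrial share, had the highest summed ATP synthase subunits, at 23740 nuclear CPM against 19450 to 20330 in the other mice, and complex I subunits of 11280, within the range of 10170 to 12190 of the others. The protein-coding mitochondrial counts were 15.4, 16.7, and 3.12 times those of the 76 nuclear subunits in WT and 21.7, 14.8, and 10.2 times in mutant mice (p = 0.70, exact permutation test on log2 ratios), a mean log2 difference of 0.68 that was -0.11 without WT replicate 3. In mutant replicate 1, with the highest mitochondrial share, the 8 cardiomyocyte markers summed to 56370 nuclear CPM, the lowest value, against 65940 to 74300 in the other mice, with *Myh6* at 11800 against 21100 to 29300. The low sum came from *Myh6*. The other 7 markers summed to 44570 nuclear CPM in this mouse and to 42820 to 45760 in the other mice, with *Pln* highest (13160) and *Actc1* (12760) and *Ryr2* (1290) lowest in it. Leukocyte markers and erythroid markers were higher in sum in the mutant mice, without overlap for the leukocyte markers and with overlap for the erythroid markers. The 8 leukocyte markers summed to 265 to 320 nuclear CPM in WT and 454 to 680 in mutant mice, and the 5 erythroid markers to 978 to 2493 and 1851 to 4894, each highest in mutant replicate 1. Of the leukocyte markers, 8 of 8 had positive log2 fold changes with a median of 1.01, 7 had an unadjusted p under 0.05 beside 8.63% of all tested genes, and 6 had groups that did not overlap after TMM normalization beside 15.5%. Of the erythroid markers, 5 of 5 were positive with a median of 0.97, 3 had an unadjusted p under 0.05, and 0 had groups that did not overlap. None of these passed edgeR's quasi-likelihood test, beside 0.0407% of all tested genes. DESeq2 called the leukocyte *C1qa* and *Lyz2* and the erythroid *Hba-a1*, beside 0.871% of all tested genes. The exact test called *C1qa*, beside 0.813%, and these genes were named after their values were seen. In the endothelial, fibroblast, and smooth muscle and pericyte lists, of 6 genes each, 0 genes were called by any of these tests, which called 0.0407%, 0.871%, and 0.813% of all tested genes. An unadjusted p under 0.05 was reached by 2 higher endothelial, 1 higher fibroblast, and 2 lower smooth muscle and pericyte genes, beside 8.63% of all tested genes. Groups did not overlap after TMM normalization for 2, 1, and 2 genes of these lists, beside 15.5% of all tested genes. *Cd3e* and *Cd79a*, the lymphocyte markers among the 8 leukocyte markers, were at 0 to 0.994 and 0.0890 to 1.18 nuclear CPM. The part of these cells in the mitochondrial values was not tested.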

How the data were processed

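LV RNA from 3 WT and 3 *Lztr1* R409C/+ mice was sequenced, 1 library per mouse, after NEBNext Ultra II library preparation. Per the labels and the study's methods, the authors trimmed reads with Trim Galore, aligned them with HISAT2 to GRCm39, excluded rRNA data, and deposited StringTie counts per gene, which are whole numbers without normalization. Tool versions, the annotation release, the use of strand, and the treatment of reads with several matches were not given in the sources used here. The authors' comparison table was used only for the names of genes, and its fold changes and p-values were not used.

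Counts were joined by Ensembl identifier, and 56236 of 56923 identifiers were in GENCODE, from which positions, lengths, and symbols were taken. The members and gene lists were chosen with earlier results of these data known. Shares and CPM used the total count. Genotypes were compared with edgeR 4.0.16 in R 4.3.3 (filterByExpr, TMM, robust quasi-likelihood test, two-sided, Benjamini-Hochberg adjustment over 17212 genes, threshold 0.05), and single values with exact permutation tests in Python 3.11.15. Intervals are 95% Wilson intervals. The named genes are all protein-coding and rRNA members, the 5 most abundant tRNAs, 6 nuclear factors fixed by name (*Tfam*, *Polrmt*, *Tfb2m*, *Lrpprc*, *Slirp*, *Ppargc1a*), and the 2 genes of each nuclear list with the smallest p. Other tRNAs were named after their values were seen. On simulated counts for 16952 genes in which 200 were changed by a log2 of 1, the fit called 39 of the 200 and 1 unchanged gene, and the median fitted size was 0.988. Every simulated gene had the same biological spread, and the simulated libraries did not differ in composition. The simulation therefore does not give the power of the fit for the mitochondrial genes. Chromosome MT was aligned to the nuclear genome with blastn 2.17.0, and matches of at least 300 bases and 97% identity were kept. Alternatives were DESeq2 1.42.0, the exact test, other scalings and filters, a replicate block, and the omission of each mouse.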

Additional observations from a re-analysis of the deposited data

How the results depend on the processing

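No mitochondrial gene passed the threshold in any of the 18 alternative fits. Over all genes, 6 were called higher and 1 lower by edgeR's quasi-likelihood test. The count of higher genes was 15 with library size only, 136 with DESeq2, 127 with the exact test, 19 without a filter, 0 with the replicate block, 0 without WT replicate 3 and mutant replicate 1, and 1 to 3 when 1 mouse was left out. It was 5 with at least 10 counts in every mouse. The count of lower genes was 6 with library size only, 14 with DESeq2, 13 with the exact test, 0 with at least 10 counts in every mouse, and 1 to 2 when 1 mouse was left out. The labels do not say whether the replicate numbers pair the mice. Correlations of -0.046, 0.063, and -0.114 between mice of the same number cannot decide it with so few mice. The replicate block called 0 members, and with it the median log2 fold change of the protein-coding genes was 0.73, against 0.43 in the main fit.

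Leaving out WT replicate 3 and mutant replicate 1, chosen after seeing the data, gave differences in the share of counts of -4.52 percentage points for all 35 genes, -4.33 for protein-coding genes, and -0.0431 for tRNA genes, and a log2 ratio of mitochondrial to nuclear subunits that differed by -0.38. It gave log2 fold changes of -0.39 (*mt-Nd1*), -0.37 (*mt-Nd2*), -0.39 (*mt-Co1*), -0.28 (*mt-Co2*), -0.29 (*mt-Atp8*), -0.33 (*mt-Atp6*), -0.29 (*mt-Co3*), -0.12 (*mt-Nd3*), -0.40 (*mt-Nd4*), -0.36 (*mt-Nd5*), -0.15 (*mt-Nd6*), -0.43 (*mt-Cytb*), -0.51 (*mt-Nd4l*), -0.23 (*mt-Rnr1*), -0.12 (*mt-Ts1*), -0.25 (*mt-Te*), -0.56 (*mt-Tc*), -0.66 (*mt-Ty*), and -0.54 (*mt-Tn*), all of the sign opposite to that with 6 mice. With 1 mouse left out, the log2 fold changes ran from -0.14 to 0.58 (*mt-Nd1*), -0.07 to 0.80 (*mt-Nd2*), -0.06 to 0.92 (*mt-Atp8*), -0.04 to 0.83 (*mt-Atp6*), -0.11 to 0.74 (*mt-Nd4*), -0.02 to 0.82 (*mt-Nd5*), -0.13 to 0.69 (*mt-Cytb*), -0.18 to 0.69 (*mt-Nd4l*), -0.24 to 0.35 (*mt-Rnr1*), -0.57 to 0.23 (*mt-Rnr2*), -0.27 to 0.56 (*mt-Tc*), -0.37 to 0.43 (*mt-Ty*), and -0.24 to 0.60 (*mt-Tn*). They stayed positive but ran from 0.0094 to 0.728 (*mt-Co1*), 0.0058 to 0.534 (*mt-Co2*), 0.08 to 0.812 (*mt-Co3*), 0.26 to 0.99 (*mt-Nd3*), 0.11 to 0.704 (*mt-Nd6*), 0.11 to 0.894 (*mt-Ts1*), and 0.08 to 0.874 (*mt-Te*). The differences in share ran from -0.167 to 11.56 percentage points for all 35 genes, -0.213 to 11.76 for protein-coding genes, and -0.00886 to 0.0808 for tRNA genes, and the log2 ratio to nuclear subunits from -0.11 to 1.1. *mt-Rnr1* was -0.0428 with library size only, and *mt-Rnr2* was 0.0196 with upper quartile scaling. The cause was not tested. Library size only moved the median over all genes to -0.14. Of the other 649 of 707 alternative values, all but the count of 5 higher genes kept their direction and call, or moved by less than the spread between mice.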

Other observations

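The remaining genes of chromosome MT, *mt-Tf* (chrMT:1-68) and *mt-Tt* (chrMT:15289-15355), had counts but no row in the authors' comparison table. *mt-Tf* had 26, 17, and 18 counts in WT and 22, 21, and 9 in mutant mice, with a log2 fold change of -0.06 (adjusted p = 0.988, edgeR). *mt-Tt* had 86, 84, and 56 counts in WT and 64, 66, and 51 in mutant mice, with a log2 fold change of -0.20 (adjusted p = 0.930, edgeR).

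Besides the chromosome 1 stretch, 4 nuclear matches of at least 300 bases and 97% identity to chromosome MT were found. The longest of these placed positions 4441 to 7699, from *mt-Nd2* to the end of *mt-Co2*, at chr2:22477300-22480546 with 97.362% identity over 3260 aligned bases. The others, on chromosomes 5, 10, and 12, were 365 to 383 aligned bases long, and the one on chromosome 12 had 99.726% identity.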
